A study of Mus musculus with 16 samples.

Results

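The unfolded protein response and the endoplasmic reticulum (ER) chaperones were examined in Paneth cells, the defensin-secreting cells of the intestinal crypt, as a list of 31 named genes out of the 55414 genes of the count table. The list was given by name. All 31 genes had counts in every library and passed the filter on low counts, so that they were among the 11809 genes tested. The cells were sorted from the small intestine of mice injected with PBS or DEX and, 1 h later, with PBS or TNF (tumour necrosis factor), and collection followed 3 h later. The sources used here do not spell out DEX, an abbreviation commonly used for the synthetic glucocorticoid dexamethasone. Each group is named by its first and then its later injection, and the PBS+PBS controls, the PBS+TNF group, the DEX+PBS group and the DEX+TNF group had 4 libraries each. The study's methods describe C57BL/6J mice and sorted Paneth cell samples of individual mice, and p-values measure the spread between these libraries. Age and doses are not given in the sources used here. The study states that its datasets hold animals of both sexes, and the sex of each sample is not given.

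Proteins that enter the ER are folded there by chaperones and by disulfide isomerases, and proteins that fail to fold are pulled back out and degraded. An excess of unfolded protein is sensed by IRE1, PERK and ATF6. IRE1 cuts a short stretch out of the Xbp1 mRNA so that it encodes an active transcription factor, PERK slows translation and lets Atf4 mRNA be translated, and ATF6 is cleaved into a transcription factor in the Golgi. Paneth cells make secreted protein in very large amounts and are known for a dense rough ER and for a dependence on Xbp1. The study's discussion proposes that chimeric alpha-defensin mRNAs may arise from random breakage and repair, or from off-target cutting by IRE1. It names the RNA ligase RtcB as an enzyme that might join the pieces. The transcript levels of the IRE1 genes, Xbp1 and Rtcb are given for that reason, but they do not test these hypotheses. The deposited values are counts per gene, so that spliced and unspliced Xbp1 mRNA cannot be told apart in them.

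The stretch that IRE1 removes was located in the annotated transcript Xbp1-201. A search of its coding part for 2 cuts of the IRE1 type 26 bases apart, whose removal lengthened the reading frame, returned 1 place, at chr11:5474279-5474304 (GRCm39, plus strand). It is shown because the level of Xbp1 reported below does not distinguish the transcripts with and without it. The removed bases are in capitals and 2 bases are printed on each side.
Xbp1 stretch: cgCAGCACTCAGACTATGTGCACCTCTGca

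The promoters of 12 of the members hold a sequence element of the kind through which ATF6 and XBP1 are known to act. The list names genes of this response, so the shares below describe the list and are not a test of it. A promoter was taken as the 250 bases before to the 50 bases after the start of the canonical transcript in GRCm39, and 4 elements were searched on both strands. The ER stress response element (ERSE) is CCAAT, 9 bases of any kind, then CCACG. It was present in 9 of the 31 members (29.03%) and in 15 of 11794 promoters of tested genes (0.127%), members included. Its CCACG end alone was far less selective, with matches in 23 members and in 45.7% of all promoters. Its second version (ERSE-II) is ATTGG, 1 base, then CCACG, and it was present in 3 members and in 10 of all promoters (0.0848%). The C/EBP-ATF response element (CARE, TGATGCAA), through which ATF4 is known to act, was present in 3 members and in 67 of all promoters (0.568%). The unfolded protein response element (UPRE, TGACGTGG) was found in 1 member, Hyou1, and in 97 of all promoters (0.822%), and there it overlapped an ERSE-II. A match is only a match of letters, and binding was not measured.

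The ERSE matches lay 162 to 19 bases before the start of transcription. Each line below gives 5 bases, the element and 5 bases, read on the strand that carries CCAAT first, with the fixed bases in capitals. They belong to the central chaperones Hspa5 (BiP), at chr2:34662032-34662060 on the plus strand, and Hsp90b1 (GRP94), at chr10:86541497-86541525 on the minus and chr10:86541392-86541420 on the plus strand. The other lines are of the cochaperone Dnajc3 at chr14:119175234-119175262 (plus), of Creld2 at chr15:88703718-88703746 (minus), of the lectin chaperones Calr at chr8:85573699-85573727 (plus) and Canx at chr11:50216622-50216650 (minus), and of the isomerase Pdia6 at chr12:17316487-17316515 (plus). Syvn1, the ubiquitin ligase of ER-associated degradation, had it at chr19:6096557-6096585 (plus) and Derl3, a part of the retrotranslocation channel, at chr10:75729071-75729099 (minus).
Hspa5 ERSE: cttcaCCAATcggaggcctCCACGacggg
Hsp90b1 ERSE, far: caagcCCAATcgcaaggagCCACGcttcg
Hsp90b1 ERSE, near: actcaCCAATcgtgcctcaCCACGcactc
Dnajc3 ERSE: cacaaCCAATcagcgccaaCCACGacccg
Creld2 ERSE: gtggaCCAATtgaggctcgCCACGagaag
Calr ERSE: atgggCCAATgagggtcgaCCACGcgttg
Canx ERSE: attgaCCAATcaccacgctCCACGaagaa
Pdia6 ERSE: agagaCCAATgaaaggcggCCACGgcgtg
Syvn1 ERSE: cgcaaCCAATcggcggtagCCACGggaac
Derl3 ERSE: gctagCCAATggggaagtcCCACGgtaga

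The ERSE-II matches belong to Hyou1, an ER chaperone of the Hsp70 family, to Manf, a secreted ER stress protein, and to Herpud1, an adaptor of ER-associated degradation. The CARE matches belong to Ddit3 (CHOP) and Chac1, both known targets of ATF4, and again to Herpud1. Herpud1 was thus the only member with matches of both kinds, the ERSE-II 32 to 22 bases and the CARE 92 to 85 bases before its start. Flanks of 9 bases are printed for ERSE-II and of 10 bases for CARE, with the fixed bases in capitals. The windows are chr9:44290652-44290680 (minus) and chr9:44290753-44290781 (minus) for Hyou1, chr9:106769229-106769257 (plus) for Manf, chr8:95112996-95113024 (plus) and chr8:95112935-95112962 (minus) for Herpud1, chr10:127126351-127126378 (minus) for Ddit3 and chr2:119181520-119181547 (minus) for Chac1.
Hyou1 ERSE-II, far: tggctgcggATTGGgCCACGtcacggttc
Hyou1 ERSE-II, near: cgagaccccATTGGtCCACGtagaagacc
Manf ERSE-II: tgcatcctcATTGGtCCACGtgcccagga
Herpud1 ERSE-II: cgggcgctgATTGGgCCACGttggacact
Herpud1 CARE: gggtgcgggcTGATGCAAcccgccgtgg
Ddit3 CARE: ggggcggggaTGATGCAAtgtttggcaa
Chac1 CARE: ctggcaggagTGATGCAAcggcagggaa

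**Figure D1:**
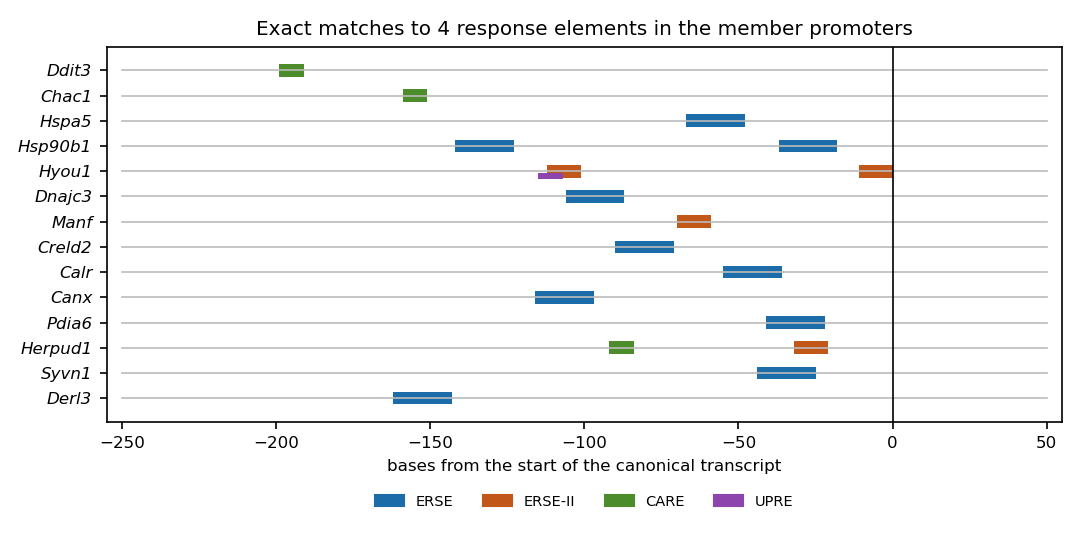
Position of each exact match to the 4 response elements in the 14 member promoters that hold at least 1 (horizontal axis, bases from the start of the canonical transcript; negative is upstream). The 10 ERSE matches lie from 162 to 19 bases upstream, Hsp90b1 and Hyou1 each carry a pair of the same element, and Herpud1 carries both an ERSE-II and a CARE.

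The libraries held 7286307 to 15832111 counts. The sum of 7 Paneth cell markers was 408305 to 609687 CPM (counts scaled to library size), and the 28 alpha-defensin genes alone took 32.2% to 59.3% of the counts, so CPM values of all other genes were scaled with TMM factors (0.418 to 1.502) and are given as normalized CPM. The 31 members together held 0.196% to 0.664% of all counts and 0.481% to 1.101% of the counts outside the defensin genes. Markers of goblet cells, another secretory cell rich in ER, summed to 8439 to 21920 CPM. Of these, Spink4 alone was at 5051 to 16107 CPM, Muc2 at 408 to 8102 and Zg16 at 0 to 83.3. Jchain, Mzb1, Igkc and Igha of plasma cells did not exceed 0.161 CPM. The fifth marker on that list, Sdc1, which epithelium also expresses, was at 9.48 to 50.9. The libraries labelled DEX+TNF 3 and DEX+TNF 4 stood apart from the others of their group. Nfkbia, a direct TNF target, was at 28.3 and 41.0 normalized CPM in them, against 330.0 and 382 in DEX+TNF 1 and 2, 277 to 337 in PBS+TNF and 15.6 to 27.3 in the 8 libraries without TNF. Cxcl10, a chemokine induced by TNF, was at 0 and 0.150 in them, against 26.1 and 33.0 in DEX+TNF 1 and 2. Their glucocorticoid-induced Fkbp5 was at 44.6 and 135, against 47.3 to 79.5 in DEX+PBS. The DEX+TNF 4 library had in addition the highest sums of tuft cell (593 CPM), enterocyte (577 CPM) and stem cell markers (1825 CPM). The counts, medians and main values on DEX+TNF are therefore given with and without these libraries. In bulk RNA, fewer cells of a type and less RNA per cell cannot be told apart.

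In the PBS+PBS cells the folding machinery was among the more abundant mRNA outside the defensins. Per kb of canonical transcript, the highest member was the lectin chaperone Calr at 229.6 ± 67.5 normalized CPM per kb (SD, n = 4), followed by the isomerase Pdia3 (137 ± 44.0), Xbp1 (129.8 ± 16.4), Hspa5 (103 ± 42.2) and Pdia6 (100.2 ± 31.1). Calr was above 99.3% of the 11794 genes with a length. The sensors were lower. Ern2, the IRE1 form of intestinal epithelium, was at 29.9 ± 8.52, Ern1, the ubiquitous IRE1 form, at 16.9 ± 8.03, Atf6 at 8.12 ± 2.48 and Eif2ak3 (PERK) at 7.81 ± 3.07 normalized CPM per kb. At the bottom of the order stood Ddit3 (1.90 ± 0.765) and the pseudokinase Trib3 (1.26 ± 0.671), both targets of the PERK branch. The ranges of all 30 neighbouring pairs in this order overlapped. Both genes of a pair were measured in the same libraries, and they were not compared library by library. Calr ranked 1 or 2 among the members in every library of all groups.

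**Figure D2:**
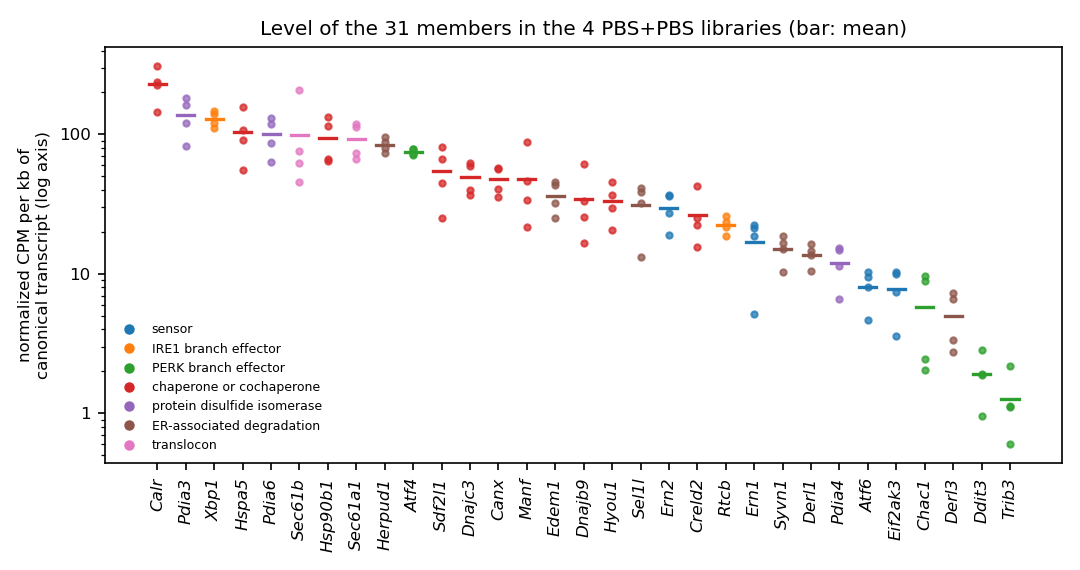
Level of each of the 31 members in the 4 PBS+PBS libraries (points) with the mean (bar), in normalized CPM per kb of canonical transcript on a log axis, coloured by role. Calr is highest at a mean of 229.6 and Trib3 lowest at 1.26, and the sensors lie below most chaperones.

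The members differed widely in their range over the 16 libraries, treatment differences included. Rtcb, the ligase that joins the cut Xbp1 mRNA, had the smallest range, with 1.72 times between its lowest and highest library, followed by Canx with 1.78 times. Chac1, an enzyme that degrades glutathione, had the largest, with 139 times, followed by Trib3 with 34.8 times. Within groups, the median coefficient of variation was lowest for Xbp1 (12.8%), Herpud1 (13.6%) and Rtcb (13.8%). Sec61b, a short subunit of the translocon through which proteins enter the ER, varied 6.84 times. Within groups it was highest in the libraries PBS+PBS 4, PBS+TNF 1 and 3 of both DEX+PBS and DEX+TNF. In the same libraries the 2921 shortest tested genes were raised relative to the 2921 longest (by 1.09, 0.60, 0.47 and 0.53 on the log2 scale), and they had the highest defensin share of their groups (54.5%, 59.3%, 49.3% and 47.5%) and the lowest TMM factors. Of the 10 members with transcripts longer than 4000 bases, only 2 to 4 were above the mean of the other libraries of the group in each of these 4. Of the 8 members shorter than 2000 bases, 4, 5, 8 and 5 were above it in these libraries. Their median log2 ratios to that mean were -0.04, 0.03, 0.98 and 0.43. The part of transcript length in the members' values was examined with 2 fits, without these libraries and with the index of length as a covariate.

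**Figure D3:**
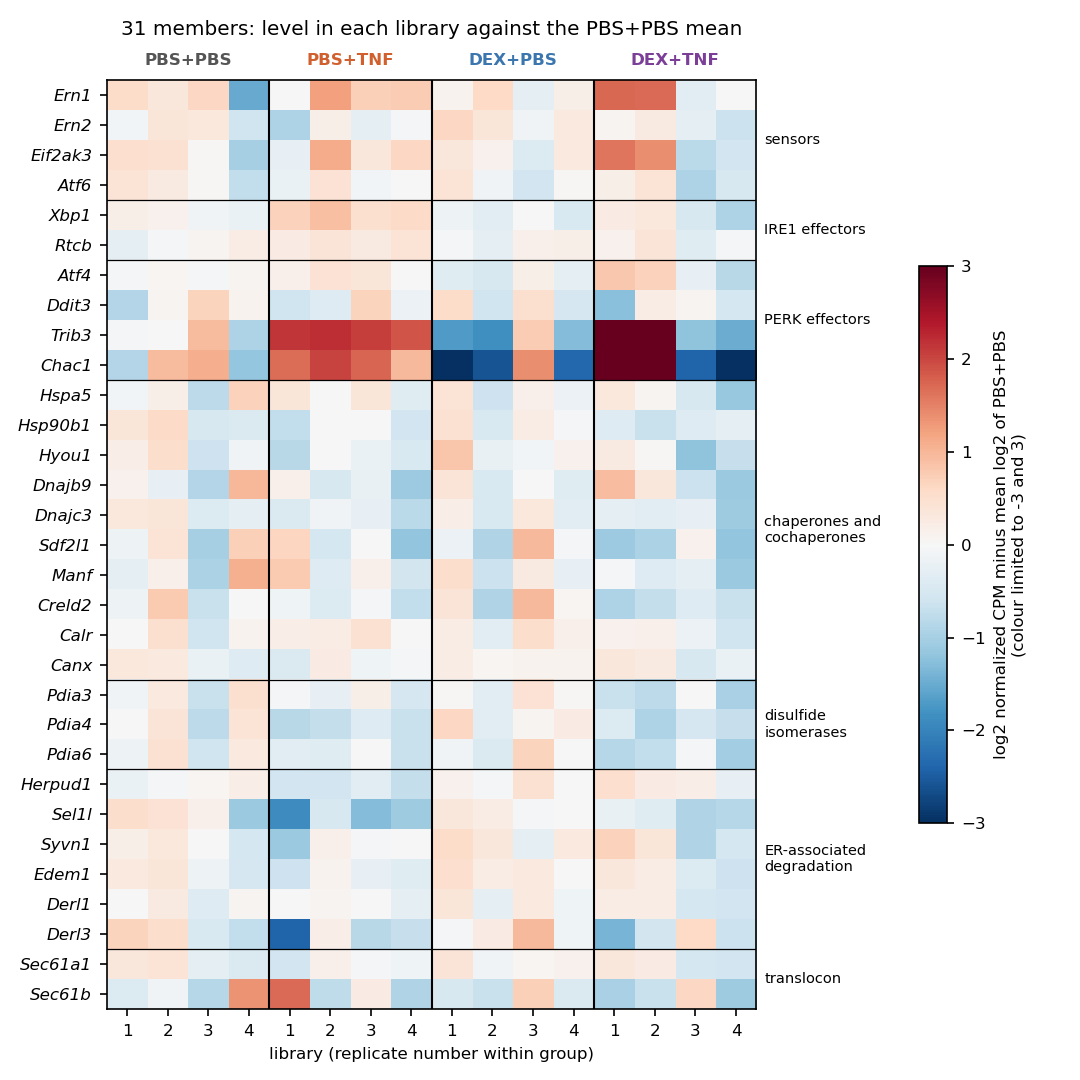
Level of each member (rows, grouped by role) in each of the 16 libraries (columns, grouped by treatment), as log2 normalized CPM minus the PBS+PBS mean, with red for higher and blue for lower. Trib3 and Chac1 are raised in the PBS+TNF libraries and in DEX+TNF 1 and 2, and Xbp1 is raised in the PBS+TNF libraries, while most chaperone rows show no common change.

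TNF after PBS was compared with PBS after PBS to ask how the response to a TNF injection reaches the module. In the main fit the ER-associated degradation gene Sel1l fell and no chaperone was called. Xbp1 and Trib3 of the IRE1 and PERK branches had higher values that did not pass the adjusted threshold in that fit. Of the 31 members, 1 was called at an adjusted p under 0.05 (edgeR's quasi-likelihood test with Benjamini-Hochberg adjustment over all tested genes), against 12.5% of all 11809 tested genes. The groups did not overlap for 4 members, against 19.5% of tested genes. The median log2 fold change of the members was -0.17, with 21 of 31 below 0, and that of all tested genes was -0.03, with 52.6% below 0. The members' share of calls was below the background.

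Sel1l, the scaffold of the HRD1 ubiquitin ligase complex (chr12:91772799-91815982, minus strand), was the called member. It was at 261, 247, 204 and 83.7 normalized CPM in PBS+PBS 1 to 4 and at 49.3, 132, 73.4 and 86.8 in PBS+TNF. PBS+PBS 4 lay inside the range of PBS+TNF, and the other 3 PBS+PBS libraries lay above it. The log2 fold change was -1.22 ± 0.34 (SE), with an adjusted p of 0.0238 by edgeR. Sel1l has a long transcript of 6356 bases, and PBS+PBS 4 and PBS+TNF 1, the lowest of their groups, are those with raised short transcripts. Without the library of highest length index in each group it was -1.29 with an adjusted p of 0.0047, where 14.4% of genes were called, and it was the only member called. The call was lost, at adjusted p of 0.0554 to 0.0800, when any of PBS+PBS 1, PBS+PBS 2, PBS+TNF 1, PBS+TNF 3 and PBS+TNF 4 was left out. It was also lost when only these groups were fitted (-1.22, adjusted p = 0.0636), and Trib3 was then the member called. None of its partners was called. Syvn1 had -0.20 ± 0.34, Edem1, which recognises misfolded glycoproteins, -0.29 ± 0.27, Derl1 -0.05 ± 0.23 and Derl3 -0.75 ± 0.48. All 6 members of ER-associated degradation had values below 0, with a median of -0.42.

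Herpud1 was at 228, 251, 274 and 298 normalized CPM in PBS+PBS and at 174, 177, 208 and 159 in PBS+TNF. All PBS+TNF libraries lay below all PBS+PBS libraries, and the fold change of -0.55 ± 0.21 had an adjusted p of 0.0984. Pdia4, a disulfide isomerase of the ER, was at 62.7, 82.0, 36.6 and 83.9 in PBS+PBS and at 35.3, 38.2, 47.9 and 39.7 in PBS+TNF. Its groups overlapped through PBS+PBS 3, with -0.72 ± 0.26 (adjusted p = 0.0771). Both passed the threshold with DESeq2 (adjusted p = 0.0165 and 0.0452). They did so too with the length index as a covariate, where 22.2% of all genes and 4 members were called, namely Sel1l, Herpud1 and Pdia4 as lower and Xbp1 as higher.

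In the IRE1 branch, Xbp1 was at 288, 277, 237 and 219.9 normalized CPM in PBS+PBS and at 411, 475, 356 and 378 in PBS+TNF. All PBS+TNF libraries lay above all PBS+PBS libraries. The log2 fold change was 0.66 ± 0.26, and the adjusted p of 0.102 by edgeR did not pass. DESeq2, which called 17.5% of all genes, called Xbp1 as higher. Rtcb was at 37.5, 43.9, 47.7 and 52.5 in PBS+PBS and at 53.4, 58.5, 53.9 and 60.1 in PBS+TNF. The groups were again apart, by a small step of 0.32 ± 0.19 (adjusted p = 0.32).

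Ern1 was at 149, 131, 158 and 36.05 in PBS+PBS and at 102, 242, 169 and 174 in PBS+TNF, and the ranges overlapped (0.53 ± 0.47, adjusted p = 0.527). Ern2 was at 79.8, 108, 106 and 55.3 in PBS+PBS and at 44.1, 95.7, 68.3 and 81.9 in PBS+TNF, with a value of opposite sign (-0.26 ± 0.28, adjusted p = 0.612). Per kb of transcript, Ern2 exceeded Ern1 in all 4 PBS+PBS and all 4 DEX+PBS libraries, and in 2 of 4 PBS+TNF and 2 of 4 DEX+TNF libraries. The ratio of Ern1 to Ern2 per kb was 0.271 to 0.779 in PBS+PBS and 0.883 to 1.05 in PBS+TNF, so that it did not overlap between these groups. This ratio was chosen after the levels had been seen and was not tested, and the transcript of Ern1 (7002 bases) is longer than that of Ern2 (2914 bases). The XBP1-dependent members Dnajb9 (ERdj4) and Dnajc3 (p58IPK) had -0.51 ± 0.43 and -0.41 ± 0.27, with adjusted p of 0.508 and 0.37.

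In the PERK branch, Eif2ak3 was at 46.8, 45.1, 34.0 and 16.5 in PBS+PBS and at 27.7, 71.5, 41.6 and 51.1 in PBS+TNF, with overlap (0.43 ± 0.47, adjusted p = 0.624). Atf4, the transcription factor of the branch, was at 125, 136, 125 and 138 in PBS+PBS and at 146, 176, 168 and 130.1 in PBS+TNF, with overlap through PBS+TNF 4 (0.24 ± 0.29, adjusted p = 0.662). Ddit3 was low in every library, at 0.942, 1.85, 2.78 and 1.88 in PBS+PBS and 1.16, 1.33, 2.74 and 1.54 in PBS+TNF (-0.13 ± 0.46, adjusted p = 0.908). Its lowest count in any library was 6, and a moderate change of Ddit3 was not detectable at this depth.

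Trib3 and Chac1 are given in every library because of their range, as are Herpud1 and Pdia4, a choice made after their values had been seen. Trib3 was at 2.31, 2.36, 4.59 and 1.26 normalized CPM in PBS+PBS and at 10.4, 10.9, 10.1 and 8.72 in PBS+TNF. All PBS+TNF libraries lay above all PBS+PBS libraries (1.89 ± 0.81, adjusted p = 0.144). With only these groups fitted, Trib3 was called (1.89, adjusted p = 0.00465). Chac1 was at 4.11, 14.7, 16.1 and 3.39 in PBS+PBS and at 24.3, 30.9, 25.4 and 14.9 in PBS+TNF, where PBS+TNF 4 lay inside the PBS+PBS range (1.29 ± 1.19, adjusted p = 0.55). With the spread estimated without the libraries labelled DEX+TNF 3 and 4, where 17.7% of all genes passed, Trib3 was called (1.88 ± 0.45, adjusted p = 0.00787), as were Xbp1 (0.66 ± 0.19, adjusted p = 0.0201) and Sel1l (-1.22 ± 0.32, adjusted p = 0.0146).

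Each member had been placed in 1 branch by a list of names, so a branch median is not a measure of its sensor's activity. The 15 members of the ATF6 branch, Sel1l, Herpud1 and Pdia4 among them, had a median of -0.26 with 13 below 0, whereas the sensor and Hspa5 were near 0. Atf6 itself was at 77.9, 71.3, 60.5 and 35.3 in PBS+PBS and at 50.9, 78.7, 55.3 and 58.0 in PBS+TNF (-0.01 ± 0.30, adjusted p = 0.989). Hspa5, its best known target, was at 455, 537, 277 and 779 in PBS+PBS and at 613, 487, 619 and 374 in PBS+TNF (0.03 ± 0.35, adjusted p = 0.974). The PBS+TNF libraries lay wholly inside the range of PBS+PBS. Hsp90b1 was at 326, 379, 182 and 189 in PBS+PBS and at 152, 259, 253 and 171 in PBS+TNF (-0.36 ± 0.28, adjusted p = 0.461). None of the 13 chaperones, cochaperones and isomerases was called. Their median was -0.36, 11 of 13 were below 0, and the values ran from -0.72 for Pdia4 to 0.17 ± 0.27 for Calr. In the translocon, Sec61a1, the pore subunit, had -0.17 ± 0.28 and Sec61b 0.21 ± 0.59.

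DEX before PBS was compared with PBS before PBS to see what DEX did on its own. No member was called by edgeR, none had an unadjusted p under 0.05, and DESeq2 called none. Of all tested genes 0.00847% were called, and the groups did not overlap for 1.88% of genes and for no member. The median of the members was 0.01, and 18 of 31 were above 0. The values ran from -0.82 ± 0.86 for Trib3 to 0.27 ± 0.28 for Ern2, and every adjusted p was 1. The 4 effectors of the PERK branch (Atf4, Ddit3, Trib3 and Chac1) were all below 0, with a median of -0.50.

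In the DEX+PBS libraries all 4 sensors overlapped PBS+PBS. Ern1 was at 111, 154, 85.7 and 115 normalized CPM, Ern2 at 129, 109, 78.9 and 103, Eif2ak3 at 42.0, 36.05, 24.7 and 40.4 and Atf6 at 78.5, 54.6, 39.6 and 60.4. Hspa5 was at 632, 312, 529.8 and 427 and Hsp90b1 at 350.0, 185, 300.0 and 251. Both lay within the PBS+PBS range.

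Xbp1 was at 227, 203, 251 and 187 in DEX+PBS, Rtcb at 44.3, 37.5, 50.2 and 51.0, Ddit3 at 2.55, 1.15, 2.41 and 1.22 and Sel1l at 229, 213, 176 and 180.3. Herpud1 was at 285, 256, 357 and 266 and Pdia4 at 97.3, 50.7, 66.7 and 74.7, and these members overlapped PBS+PBS. Atf4 was at 101, 94.0, 147 and 108, with 3 libraries below all of PBS+PBS and the library DEX+PBS 3 above it. The same library stood out in Chac1 and Trib3, but not in Ddit3. Chac1 was at 20.04 in DEX+PBS 3 and at 0.728, 1.27 and 1.48 in the other 3, and Trib3 was at 4.01 against 0.728, 0.663 and 0.969. In those 3 libraries both genes were below every PBS+PBS library, and DEX+PBS 3 has the raised short transcripts described above. Without the library of highest length index in each group, the difference from PBS+PBS was -3.27 ± 1.35 for Chac1 and -1.96 ± 0.92 for Trib3, both at an adjusted p of 1.

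DEX before TNF was compared with PBS before TNF to ask what DEX changed in the TNF response. No member was called by edgeR, which called 0.339% of all tested genes. An unadjusted p under 0.05 was reached by 2 members, Xbp1 and Herpud1, against 11.9% of all genes, and DESeq2 called both, where it called 2.32% of all genes. The groups did not overlap for 6.38% of genes and for 2 of 31 members, again Xbp1 and Herpud1. The members' share without overlap was near the background, and their share at an unadjusted p under 0.05 (6.45%) was below it. The median of the members was 0.01, with 16 above 0. Without the libraries labelled DEX+TNF 3 and 4 it was 0.25, with 19 above 0, against -0.02 for all genes, and no member and no other gene was called (edgeR), with 8 members and 1206 genes at an unadjusted p under 0.05.

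Xbp1 was at 299.6, 314, 181 and 134 normalized CPM in DEX+TNF 1 to 4, all below the lowest PBS+TNF library (356). The log2 fold change was -0.80 ± 0.26 (adjusted p = 0.196), and without the libraries labelled DEX+TNF 3 and 4 it was -0.40 ± 0.23 (adjusted p = 0.558). Herpud1 was at 370.3, 309, 299 and 222, all above the highest PBS+TNF library (208). Its value was 0.74 ± 0.21 (adjusted p = 0.143), and 0.92 ± 0.22 (adjusted p = 0.244) without these libraries. With the length index as a covariate, where 2% of all genes were called, Xbp1 (-0.86) and Herpud1 (0.76) passed, at adjusted p of 0.0493 and 0.0369.

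Sel1l was at 156, 142, 98.1 and 101 in DEX+TNF, with a mean between the means of PBS+TNF (85.3 ± 34.5) and PBS+PBS (199 ± 80.7), with 0.54 ± 0.33 against PBS+TNF (adjusted p = 0.555), and 0.81 ± 0.38 (adjusted p = 0.504) without the libraries labelled DEX+TNF 3 and 4. Rtcb was at 49.0, 58.9, 34.9 and 44.1 and Ern2 at 89.0, 102, 70.3 and 54.2, and both overlapped PBS+TNF. Hspa5 was at 598, 504, 343 and 218 and Hsp90b1 at 194, 160.5, 194 and 209. The difference of both from PBS+TNF was within the error (-0.33 ± 0.35 and -0.14 ± 0.28, and 0.08 ± 0.37 and -0.23 ± 0.35 without the libraries labelled DEX+TNF 3 and 4). Pdia4 was at 47.4, 33.4, 44.5 and 39.2, with 0.03 ± 0.26 against PBS+TNF.

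TNF after DEX was compared with PBS after DEX. With all libraries, no member was called by edgeR, which called 0.339% of all tested genes. An unadjusted p under 0.05 was reached by 5 members (16.1%, against 10.4% of all genes), and DESeq2 called 1, Trib3, and 2.20% of all genes. The groups did not overlap for 4.68% of genes and for 2 members, Pdia4 and Sel1l, both lower in DEX+TNF. The median of the members was -0.24, with 22 of 31 below 0, against 0.03 for all tested genes. Without the libraries labelled DEX+TNF 3 and 4 its sign turned, to 0.02 with 15 below 0, against -0.07 for all genes. With all libraries, the 13 chaperones and isomerases had a median of -0.51 with 12 of 13 below 0, the lowest being Creld2 (-0.94 ± 0.34, adjusted p = 0.281) and Pdia4 (-0.81 ± 0.26, adjusted p = 0.21). Without the libraries labelled DEX+TNF 3 and 4 the median of these 13 was -0.28, with 10 below 0, and Creld2 had -1.09 ± 0.44 and Pdia4 -0.84 ± 0.33. The 5 genes of the PERK branch had, with all libraries, a median of 0.67 with 4 above 0.

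The DEX+TNF libraries were split within the module. Of the 31 members, 20 were higher in both DEX+TNF 1 and 2 than in both libraries labelled DEX+TNF 3 and 4, 1 (Creld2) was lower in both, and 10 overlapped. Of all 11809 tested genes, 30.9% were higher in both and 30.7% lower in both. The 3 largest ratios were in the PERK branch. Chac1 was at 76.2 and 72.2 normalized CPM in the first pair and at 1.43 and 0.548 in the other pair, and Trib3 at 23.1 and 19.2 against 1.02 and 0.848. Eif2ak3 was at 101 and 86.3 against 18.9 and 22.1, and Atf4 at 228 and 211 against 110.3 and 73.5. Ern1 followed the same split, at 339 and 334 against 82.7 and 104, and so did Atf6 at 66.5 and 77.4 against 31.1 and 42.3. Ddit3 did not, at 0.726 and 2.02 against 1.84 and 1.197.

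The ratio of the pair means was 75.1 for Chac1, 22.6 for Trib3, 4.56 for Eif2ak3, 3.61 for Ern1 and 2.39 for Atf4. Among chaperones and isomerases it ran from 0.646 for Sdf2l1 to 2.88 for Dnajb9. It was 2.11 for Hyou1, 1.96 for Hspa5, 1.42 for Calr, 1.56 for Canx, 0.880 for Hsp90b1, 0.795 for Pdia3 and 0.784 for Pdia6. In the libraries labelled DEX+TNF 3 and 4, Trib3 thus lay within the range of DEX+PBS (0.663 to 4.01). Ern1 was at 82.7 and 104, against 85.7 to 154 in DEX+PBS. Chac1 and Atf4 lay below every DEX+PBS library only in DEX+TNF 4 (0.548 and 73.5). Eif2ak3 (18.9 and 22.1 against 24.7 to 42.0) and Xbp1 (181 and 134 against 187 to 251) lay below every DEX+PBS library in both. So did Sel1l, whose 98.1 and 101 lay below every DEX+PBS library (176 to 229), as did the 156 and 142 of the first pair. Why these libraries differ was not tested.

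Without the libraries labelled DEX+TNF 3 and 4, 5 members were called in this comparison, all higher in DEX+TNF, where 10.5% of all genes were called. These were Trib3 (3.81 ± 0.53, adjusted p = 0.000185), Atf4 (0.96 ± 0.22, adjusted p = 0.00865), Chac1 (3.72 ± 0.95, adjusted p = 0.0224), Eif2ak3 (1.38 ± 0.37, adjusted p = 0.0232) and Ern1 (1.53 ± 0.42, adjusted p = 0.0299). The 2 remaining DEX+TNF libraries differ less in their counts than any other pair within a group, and their spread is estimated together with that of the other groups. Hspa5 was not among them (0.22 ± 0.37, adjusted p = 0.76). Against PBS+TNF, a comparison that shares the DEX+TNF libraries, the values were 1.08 ± 0.50 for Trib3, 0.50 ± 0.22 for Atf4, 1.64 ± 0.91 for Chac1, 0.96 ± 0.37 for Eif2ak3 and 0.97 ± 0.43 for Ern1, and none was called there (adjusted p of 0.453 to 0.551). This choice was made after the levels of the TNF target genes had been seen. The length index of DEX+TNF 1 and 2 was -0.543 and -0.437, against -0.252 to 0.472 in DEX+PBS. Ern1 (7002 bases) and Eif2ak3 (4555 bases) have long transcripts. With all libraries and the length index as a covariate, 0 members and 0.0847% of all genes were called in DEX+TNF against DEX+PBS. The part of transcript length in the 5 calls was not tested.

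**Figure D4:**
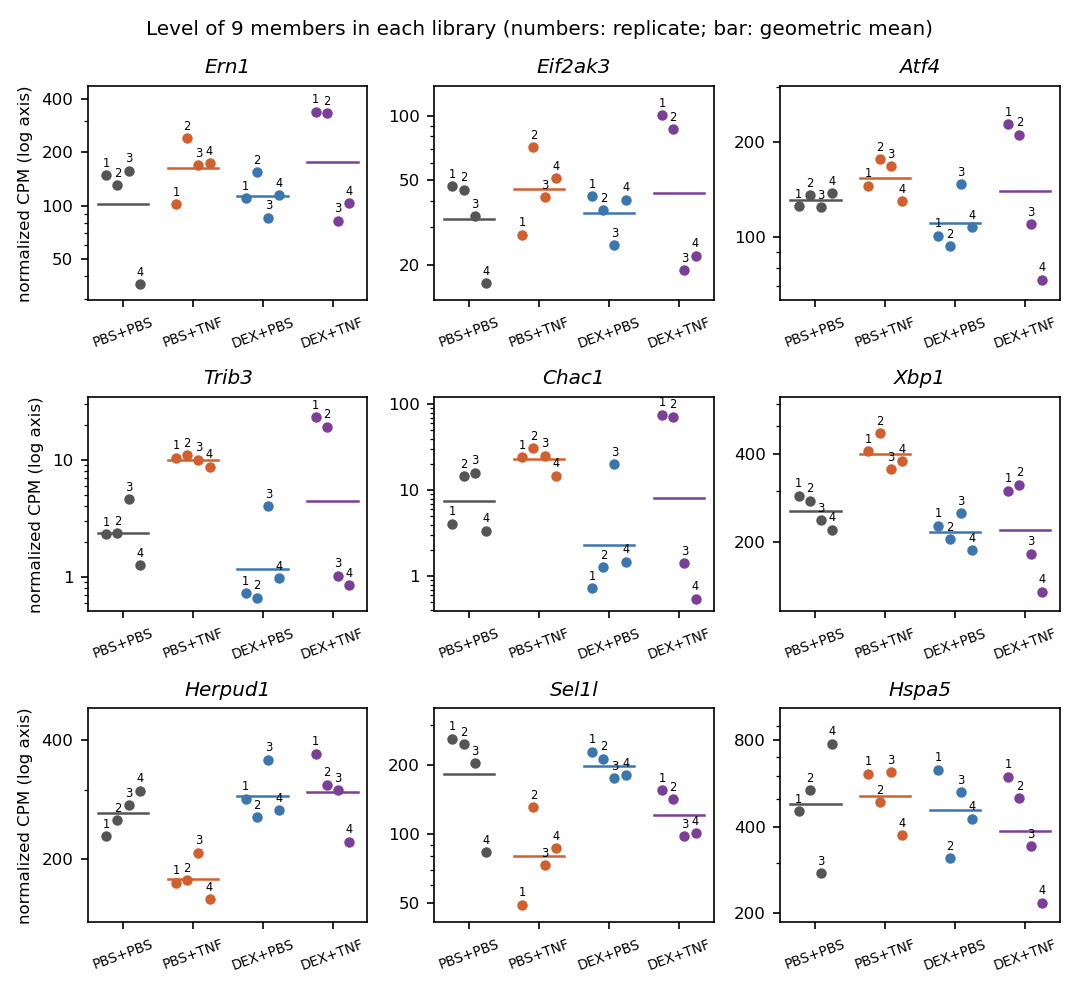
Normalized CPM (log axis) of 9 members in each library, with the replicate number at each point and the geometric mean of the group as a bar. In DEX+TNF the libraries 1 and 2 lie far above 3 and 4 for Ern1, Eif2ak3, Atf4, Trib3 and Chac1, whereas all 4 lie below PBS+TNF for Xbp1 and above it for Herpud1, and Hspa5 overlaps among all groups.

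The interaction, which is the log2 effect of TNF in DEX-treated mice less that in PBS-treated mice, was called for no member and for 0% of all genes by edgeR. No member had an unadjusted p under 0.05, and DESeq2 called 9 genes in all and no member. The smallest adjusted p was that of Herpud1 (0.59 ± 0.30, adjusted p = 0.932). For Xbp1 the interaction was -0.56 ± 0.36 and for Trib3 0.96 ± 1.15. Without the libraries labelled DEX+TNF 3 and 4 these 3 values were 0.77 ± 0.29 for Herpud1, -0.16 ± 0.29 for Xbp1 and 1.94 ± 0.70 for Trib3, and none was called, with 4 members and 674 genes at an unadjusted p under 0.05. Whether DEX altered the TNF effect on any member was thus not resolved at this spread.

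**Figure D5:**
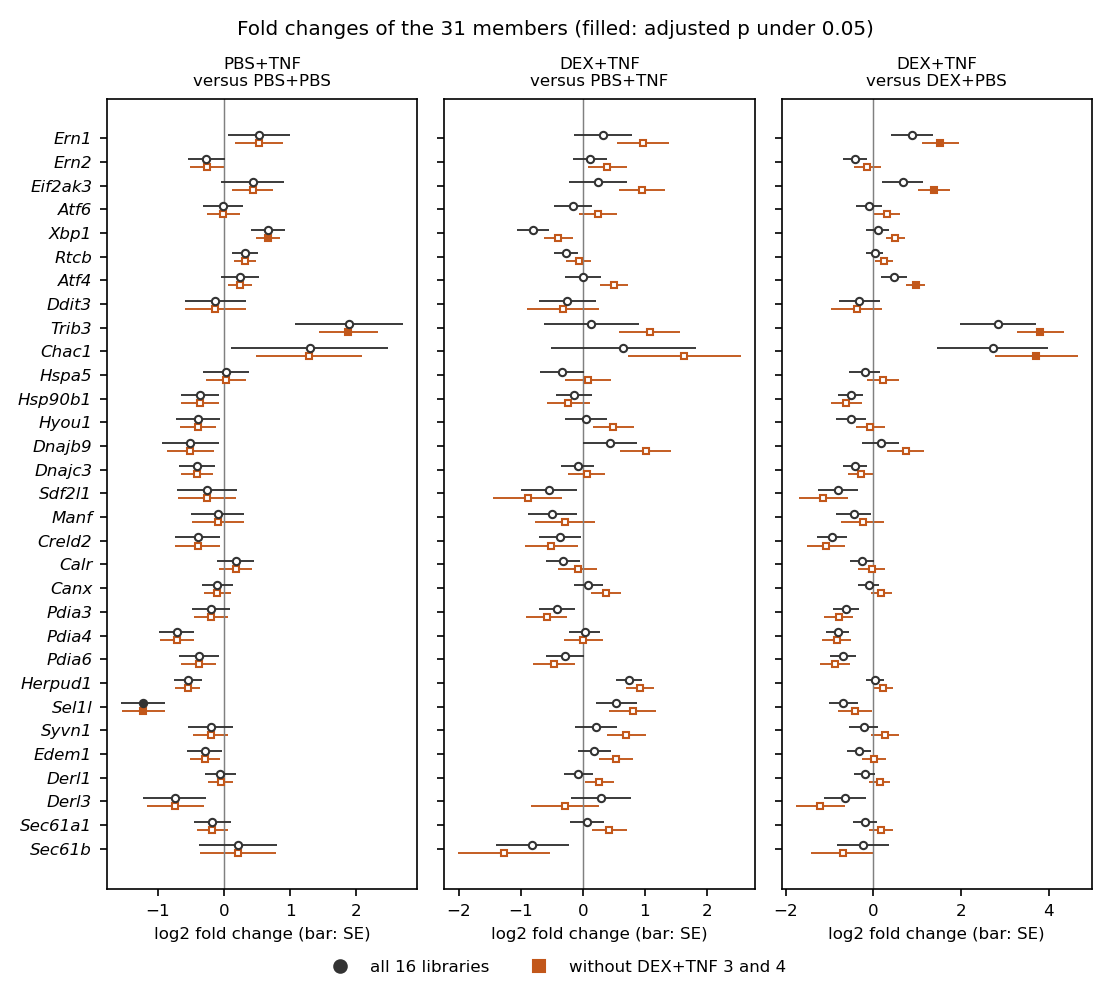
Log2 fold change with its SE of the 31 members in 3 comparisons, with all 16 libraries (circles) and without the libraries labelled DEX+TNF 3 and 4 (squares), filled where the adjusted p is under 0.05. Sel1l is the filled circle, at -1.22, and the panel of DEX+TNF against DEX+PBS has 5 filled squares, for Ern1, Eif2ak3, Atf4, Trib3 and Chac1.

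A wider list of 86 genes of the same pathway, of which 85 were tested, was read beside the members. In PBS+TNF against PBS+PBS 11 were called (12.9%, against 12.5% of all tested genes), 7 higher and 4 lower. The median of the list was -0.24, and 64 of 85 values were below 0. Among the 24 genes of the ATF4 and PERK pathway, 5 rose and 2 fell. Atf3, a stress-induced transcription factor, rose by 3.12 ± 0.71 on the log2 scale (adjusted p = 0.00856). Ppp1r15a (GADD34), which restores translation after PERK signalling, rose by 1.51 ± 0.34 (adjusted p = 0.00862). Its normalized CPM was 8.04 to 12.7 in the PBS+PBS libraries and 28.1 to 35.8 in those of PBS+TNF. Cebpg, a partner of ATF4, rose by 1.40 ± 0.37 and Eif2ak2 (PKR), the kinase that senses double-stranded RNA, by 1.55 ± 0.30. Ddit4 rose by 0.85 ± 0.25. Vldlr and Aldh18a1 fell (-0.99 ± 0.29 and -0.65 ± 0.20). Asns, Psat1 and Phgdh, which make amino acids downstream of ATF4, were not called. Several of these genes are also known to respond to cytokines outside the PERK branch.

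Among the 27 genes of XBP1 targets and the secretory machinery, 2 fell and none rose. Bhlha15 (Mist1), a transcription factor of secretory cells and a known target of XBP1, fell by 2.63 ± 0.31 on the log2 scale (adjusted p = 0.000207). It was at 279, 223, 207 and 113 normalized CPM in PBS+PBS and at 17.9, 44.9, 38.3 and 31.3 in PBS+TNF. In DEX+TNF it was at 133, 103, 113 and 105, above all PBS+TNF and below all DEX+PBS libraries (193 to 317), and it was the pathway gene called against PBS+TNF (1.77 ± 0.30, adjusted p = 0.0276). That call was lost when any library of PBS+TNF, or either of those labelled DEX+TNF 3 and 4, was left out. All 4 DEX+TNF libraries, those labelled 3 and 4 included, lay close together in this gene. Edem2, which trims mannose from misfolded glycoproteins, fell in PBS+TNF (-0.98 ± 0.22, adjusted p = 0.00836). None of the 17 other ER chaperones and oxidases was called, and 16 of them were below 0. Of the 17 regulators and other degradation genes, Bak1 and Traf2 rose (1.38 ± 0.28 and 0.95 ± 0.26, adjusted p of 0.00489 and 0.0248).

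No other pathway gene was called in DEX+PBS against PBS+PBS, in DEX+TNF against DEX+PBS or in the interaction with all libraries (edgeR). An unadjusted p under 0.05 was reached by 5, 15 and 6 of them (5.88%, 17.6% and 7.06%). Of all tested genes, 1.90%, 10.4% and 5.44% reached it, so that the share in the interaction was near the background. DESeq2 called 1 in the first and 6 in the second of these comparisons, where it called 0.0594% and 2.20% of all genes. In DEX+PBS against PBS+PBS, 22 of the 24 genes of the ATF4 and PERK pathway were below 0 (91.7%, against 53.0% of all genes). Their median was -0.39, and the highest value was 1.14. The groups did not overlap for 3 of the 24 as lower and for 1, Ddit4, as higher, against 1.88% of all genes in either direction. Ddit4 was at 45.5 to 72.0 normalized CPM in DEX+PBS and at 16.5 to 32.9 in PBS+PBS. The 5 genes at an unadjusted p under 0.05 by edgeR were of this set. The same DEX+PBS libraries are the reference of DEX+TNF against DEX+PBS. Without the libraries labelled DEX+TNF 3 and 4, 12 were called in DEX+TNF against DEX+PBS (14.1%, against 10.5% of all genes), 11 of them higher. Cebpg (1.97 ± 0.20), Ppp1r15a (1.82 ± 0.21) and Atf3 (2.97 ± 0.44) were called as in PBS+TNF against PBS+PBS, and Eif2ak2 (1.32 ± 0.26) and Traf2 (1.06 ± 0.26) were as well. The amino acid transporters Slc7a11 (2.49 ± 0.48), Slc3a2 (1.27 ± 0.25) and Slc7a5 (1.42 ± 0.38) the ER oxidase Ero1a (0.99 ± 0.23) and the stress gene Sesn2 (1.33 ± 0.30) rose in this comparison. Slc7a11 was at 21.8 and 8.65 normalized CPM in DEX+TNF 1 and 2, at 1.69 to 4.25 in DEX+PBS and at 4.36 to 5.01 in PBS+TNF, and it reached 10.999 in PBS+PBS. Edem2 fell (-0.96 ± 0.24). This comparison and that of PBS+TNF with PBS+PBS have no library in common, but they share an estimate of the spread.

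Markers of other cells were read beside the members. Goblet cell markers, the most abundant of these, summed to 8439 to 18659 CPM in PBS+PBS, against 14624 to 21920 with TNF alone and 9267 to 14577 in the DEX+TNF libraries. Enterocyte markers summed to 82.1 to 178 in PBS+PBS, while they reached only 30.2 to 75.4 with TNF alone and were at 84.6 to 109 with DEX alone. They were at 26.1 and 19.2 in DEX+TNF 1 and 2, and at 112 and 577 in the libraries labelled DEX+TNF 3 and 4. Tuft cell markers were at 0.434 and 0 against 82.5 and 593, and enteroendocrine markers at 0.0869 and 0 against 12.02 and 17.3. Stem cell markers were at 311 and 257 against 332 and 1825. The enterocyte, tuft, enteroendocrine and stem cell sums thus had a split opposite to that of Chac1, Trib3, Eif2ak3 and Atf4 of the PERK branch. Ddit3 of that branch was not split. The goblet, immune and cycling cell sums overlapped between the pairs. Goblet cell markers were at 9267 and 11136 in DEX+TNF 1 and 2, against 14577 and 10171 in the other pair. Immune markers were at 70.5 and 72.3 against 47.9 and 188, and cycling cell markers at 23.2 and 18.2 against 22.3 and 184. The part of these sums in the members' values was not tested. Of the 7 enterocyte markers, Alpi and Apoa4 were at 0 in 8 libraries each. Stromal and red blood cell markers did not exceed 0.970 CPM in sum.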

How the data were processed

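Paneth cells of 16 mouse samples in 4 groups of 4 were measured by stranded mRNA sequencing. The deposited values are raw read counts per gene in a table of 55414 Ensembl genes. Per the submitters' processing notes, FastQC 0.12, STAR 2.7.10a and DESeq2 were used with the build mm39, and the program that made the counts is not given in the sources used here. The labels gave the group of every sample. Genes were named with GENCODE M39, and 665 identifiers without a name held 0.00519% of the counts. Genes passing filterByExpr were scaled by TMM and tested with edgeR 4.0.16 (quasi-likelihood, robust, 1 mean per group, all 16 libraries). P-values were adjusted by Benjamini-Hochberg over all tested genes within each comparison, and an adjusted p under 0.05 was called. The SE is the log2 fold change divided by the square root of F. Levels are CPM scaled by TMM, divided by the length of the canonical transcript where given per kb. Depth was 7286307 to 15832111 counts per library. The script was tested on simulated data.

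The members and the pathway lists were chosen with earlier results of these data known. Every member is named, and values in every library are given for the sensors, Xbp1, Rtcb, Atf4, Ddit3, Hspa5, Hsp90b1 and any called member. Of other pathway genes, at most 10 called ones with the smallest p were to be named per comparison, and Aldh18a1, Slc7a5, Asns, Psat1 and Phgdh were added after their values were seen. Promoters were read from GRCm39. The alternatives were other scaling factors, filters, DESeq2 1.42.0, only the groups compared, a replicate block, a stricter threshold and each library left out. Leaving out the libraries labelled DEX+TNF 3 and 4, leaving out the library of highest length index per group, and this index as a covariate were added after the data were seen. The length index is the median log2 deviation of the 2921 shortest genes less that of the 2921 longest.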

Additional observations from a re-analysis of the deposited data

Results flagged for a closer look

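In 6 of 124 combinations of a member and a group, 1 library lay far from the other 3 of its group. The rule would flag about 1 in 20 groups of independent values. The members share their libraries and are not independent, so the number seen was not tested against chance. In DEX+PBS 3, Chac1 was at 20.04 normalized CPM against 0.728 to 1.48 in the others, Trib3 at 4.01 against 0.663 to 0.969, and Sec61b at 166 against 63.0 to 74.8. In the library labelled DEX+TNF 3, Sec61b was at 155 against 48.2 to 64.0 and Sdf2l1, a component of the Hspa5 chaperone complex, at 60.2 against 24.3 to 28.7. In the library labelled DEX+TNF 4, Dnajc3 was low, at 119 against 201 to 210.0. DEX+PBS 3 and DEX+TNF 3 are the libraries of their groups with the highest length index, and its part in these values was not tested.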

How the results depend on the processing

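In PBS+TNF against PBS+PBS, 1 member was called. The count was 3 with upper-quartile factors, 4 with DESeq2, 0 at an adjusted p under 0.01, 3 without the libraries labelled DEX+TNF 3 and 4, 4 with the length index as a covariate, and 0 to 2 when 1 library was left out. With only the groups compared it stayed 1, but the member was Trib3 in place of Sel1l. Sel1l itself kept its direction in all 28 alternatives, from -1.50 to -1.06, and was called in 21. In DEX+TNF against PBS+TNF the count of 0 became 2 with DESeq2 and 2 with the covariate. In DEX+TNF against DEX+PBS it became 1 with DESeq2, 0 to 1 with 1 library left out (1, Trib3, without DEX+TNF 3 or DEX+TNF 4), and 5 without both. It was 0 in DEX+PBS against PBS+PBS and in the interaction under each alternative. The causes were not tested. No called value reversed. Of 154 uncalled member values over all comparisons, 11 were called under some alternative and 77 changed sign in some. With upper-quartile factors the median of all genes in PBS+TNF against PBS+PBS moved to -0.15 and that of the members to -0.29.

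The count of other pathway genes called in PBS+TNF against PBS+PBS, 11, was 6 at an adjusted p under 0.01, 23 with the covariate and 7 without PBS+PBS 1, PBS+PBS 2 or PBS+TNF 4. With a replicate block, Sel1l was the 1 member called in PBS+TNF against PBS+PBS, and the block called 0 members in each other comparison. The samples were not taken as paired, under a rule that asked every pair with the same number for a correlation of its deviations over 0.1. Of these pairs 12 of 24 passed (median 0.11), against 20 of 72 with different numbers (median -0.06). In addition, 7 of 16 libraries were closest to their own number. The rule is strict and cannot exclude pairing, which was not tested. Of all genes, the block called 16 in DEX+TNF against PBS+TNF and 0 in DEX+TNF against DEX+PBS, each 40 without it. Low counts limit Ddit3, Trib3, Chac1 and Derl3, each with 6 counts in its lowest library.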
